A study of Mus musculus with 10 samples.

Results

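The 9 genes described here encode the ABL kinases (Abl1 and Abl2) and 7 SRC family kinases (Lyn, Fyn, Blk, Lck, Fgr, Src and Yes1), the non-receptor tyrosine kinases that dasatinib inhibits. They were taken by name from a table of 29955 genes, and all 9 were present. RNA sequencing was done on 10 libraries of 1 mouse line of Ph+ acute lymphoblastic leukaemia, which carries the fusion gene BCR-ABL1 in its p185 form, whatever the treatment. The parental group (n = 2) is that line before selection. The dasatinib 1x group (n = 3) came from cells that outgrew the drug at its starting dose, where a step is named for its multiple of the IC90, the concentration that inhibits most growth. The dasatinib 16x group (n = 3) came from cells taken up to 16x. The DMSO 1x and DMSO 16x lines (n = 1 each) were carried with the solvent of the drug through those steps. The parental and both DMSO groups are called drug-free below (n = 4). The comparison between dasatinib and drug-free libraries asks how the genes of the drug's targets differed in cells that had outgrown the drug, and the DMSO lines show what differed without it. The labels do not say whether drug was present when RNA was taken. All lines go back to a single parental line, and each DMSO step rests on 1 library.

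ABL and SRC kinases share one build: an SH3 and an SH2 domain, which bind partner proteins and hold the enzyme closed, followed by the kinase domain. In B cell precursors the SRC family members Lyn, Blk and Fyn phosphorylate the signalling chains of the pre-B receptor, which recruits SYK or ZAP70. BCR-ABL1 fuses the kinase part of ABL1 to BCR, and its constant activity drives the leukaemia. Reads from the Abl1 part of the fusion transcript may have been counted together with reads of Abl1 itself, and the counts cannot tell them apart.

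Dasatinib occupies the ATP pocket of these kinases and needs a threonine at its back wall, the gatekeeper residue. The codons around it are shown because the kinases share this site of the drug, for 8 of the 9 genes. Each line gives 27 bases of the coding sequence from GENCODE vM21, with the gatekeeper codon in capitals.
Abl1: ttctacataatcACTgagttcatgacc
Abl2: ttttacattgtgACTgaatacatgccg
Fyn: atttacatcgtcACGgagtacatgagc
Blk: atttacatcgtcACTgaatacatggcc
Lck: atctacatcatcACGgaatacatggag
Fgr: atttatattgtgACAgagttcatgtgc
Src: atttacattgtgACAgagtacatgaac
Yes1: atttatattgtcACCgagtttatgtca
The codon reads as threonine in all 8 reference sequences shown, although 4 different codons are used. Against Abl1, between 18 and 20 of the 27 bases were identical in the others shown, with Blk and Fyn at 20. These are reference sequences. The counts hold no sequence, so whether any line carried a changed codon was not analysed here. No stretch of 50 bases in the annotated transcripts was shared between any of the 9 genes, so no read of that length could come from more than 1 of them. For Lyn, 18.3% of such stretches occur in another annotated gene (Gm11787 or Gm26857), and for Yes1 8.35% do (mainly Gm10461), which makes these counts less certain.

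Total counts were 29049760 to 45813092 per library, and 12282 genes, all 9 kinases among them, had enough counts to be tested. Levels are given as CPM, the count of a gene scaled to a common library total. Markers of the labelled cell type were present: 10 of 12 pro-B and pre-B genes exceeded 1 CPM in every library. The summed level of the list was 3801 to 4406 CPM. Ebf1, also on the list, had group means of only 0.137 to 0.478 CPM. The T cell list summed to 53.9 to 83.1 CPM with Cd4, Cd8b1 and Themis at 0 counts in every library. The myeloid list summed to 6.89 to 18.7 CPM with Elane and S100a8 at 0, and the stromal list to at most 0.17 CPM.

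Of the 9 genes, 4 were abundant, 2 were intermediate and 3 were near the limit of detection. Per kilobase of exon, averaged over the 10 libraries, the order was Lyn (43.5 CPM per kb), Fyn (33.1), Abl1 (26.5), Abl2 (14.6), Lck (9.55), Blk (9.34), Fgr (0.154), Src (0.0973) and Yes1 (0.0702). Lyn, the main SRC family kinase of B cells, was first in all 5 groups, with group means of 40.6 to 50.3 CPM per kb. Fyn (22.6 to 36.9 CPM per kb) and Abl1 (24.7 to 27.9 CPM per kb) overlapped in their group means. Lck (7.6 to 11.1 CPM per kb) lay within the range of Blk (2.24 to 24.5 CPM per kb). By group means the order of both pairs changed between groups. Fyn was above Abl1 in every group except DMSO 16x. Blk was above Lck in the parental and DMSO groups and below it in the dasatinib groups. The place of Abl2 depends on the length used. Divided by the length of the longest coding transcript instead of all exons, it stood at 43.2 CPM per kb, level with Lyn at 43.5.

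**Figure D1:**
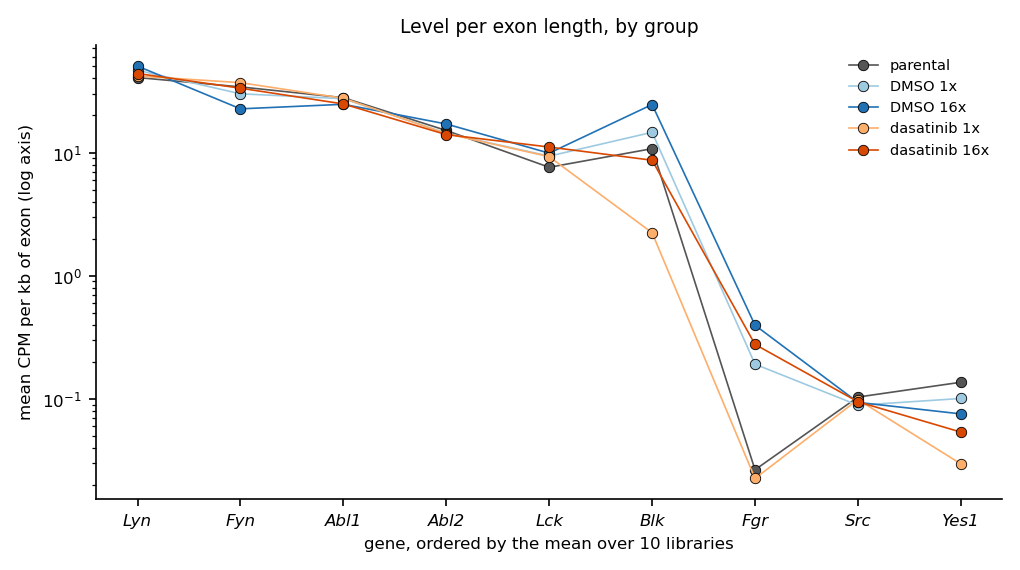
Mean CPM per kilobase of exon (log axis) of the 9 genes in the 5 groups; each point is a group mean and lines join the points of a group. Lyn, Fyn, Abl1, Abl2 and Lck keep close to their level in all groups, whereas Blk runs from 2.24 to 24.5 and Fgr from 0.0227 to 0.397 CPM per kb.

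The genes also differed in how much they varied. The SD of log2 CPM over the 10 libraries was 1.62 for Fgr, 1.33 for Blk and 0.96 for Yes1, above the SD of 98.3, 97.2 and 94.6% of all tested genes. It was 0.08 for Abl1, 0.10 for Lyn and 0.10 for Abl2, below the median SD of 0.15 over all tested genes. Fgr and Yes1 are among the least abundant of the 9, and counting error adds to their spread. Blk had 147 to 2129 counts per library.

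**Figure D2:**
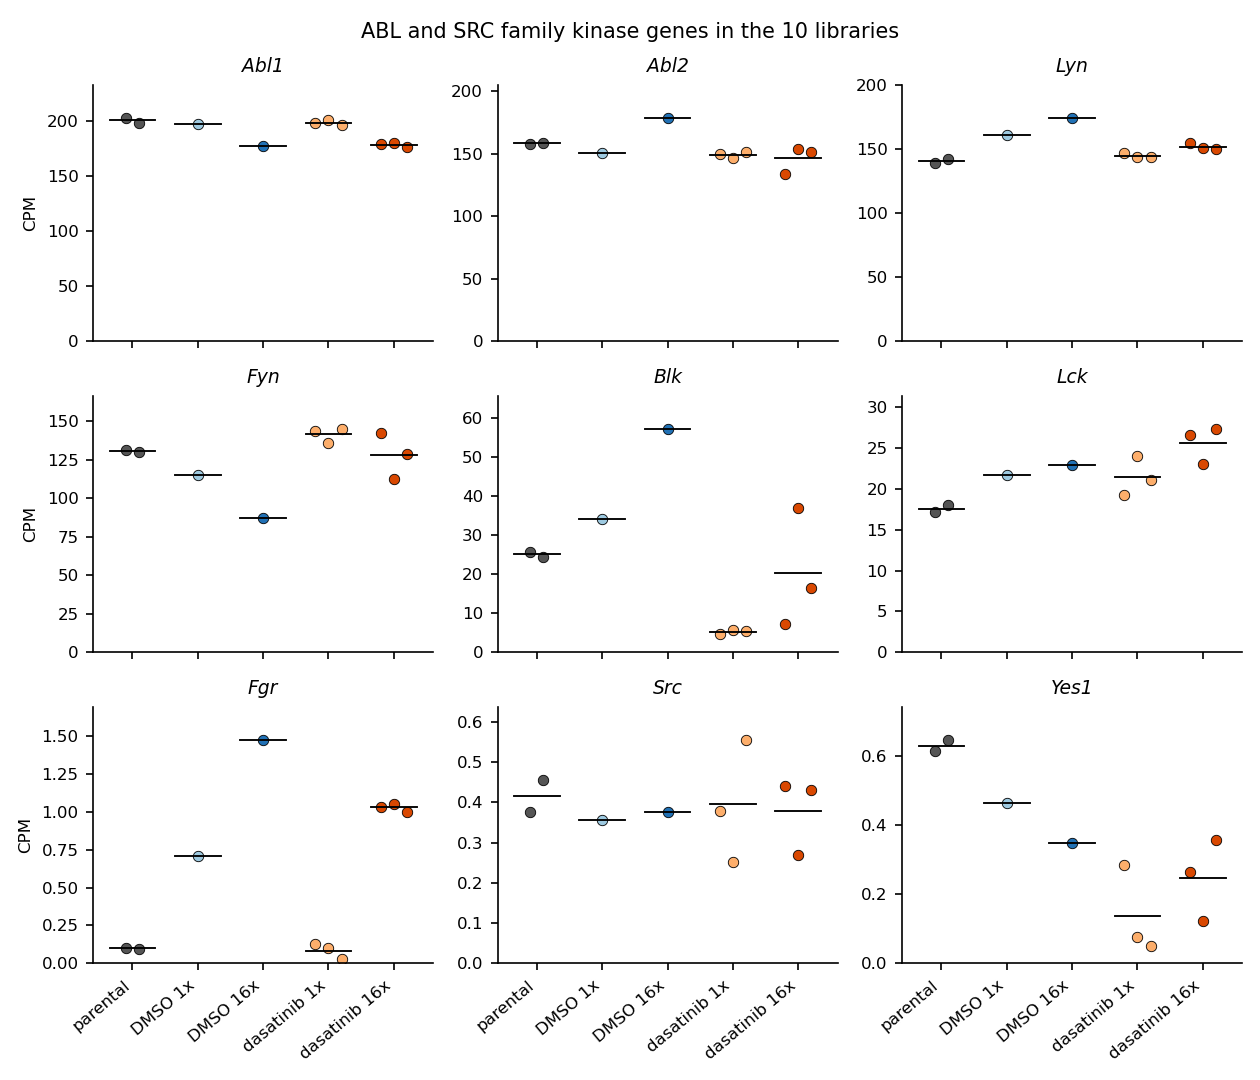
CPM of each of the 9 genes (linear axes from 0, a scale of its own per gene) in the 10 libraries by group; points are libraries and bars are group means. Blk lies at 4.65 to 5.56 CPM after dasatinib 1x and at 24.4 CPM or more in the 4 drug-free libraries, and Fgr is near 0 in the parental and dasatinib 1x libraries alone.

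At the first dose step, 1 of the 9 genes passed the test against the drug-free libraries, where 1.96% of all 12282 tested genes did. Blk fell 6.77-fold. In 3 genes the libraries of the classes did not overlap (Blk and Yes1 lower, Fyn higher), which held for 23.6% of all tested genes. The median log2 change of the 9 genes was -0.09, against -0.006 over all tested genes. At 16x, 0 of the 9 genes passed against drug-free (edgeR quasi-likelihood test, adjusted p under 0.05), where 16.1% of all genes did. Abl1 and Lck had an unadjusted p under 0.05, as 31.4% of all genes did, and DESeq2 called these 2 and 21.8% of all genes. Only the Lck libraries did not overlap between these classes (28.3% of all genes). The median change was -0.04, against -0.004 over all genes. These counts depend on the reference and on the grouping of the libraries. The drug-free class of this fit holds 3 lines, and the coefficient of variation was 15.3%, against 7.27% with 5 separate groups. With 5 groups, more of the 9 genes passed at both steps, and so did more of all genes. A fit of the parental and dasatinib libraries alone called 1 of the 9 genes at 1x and 4 at 16x. Of the 12282 tested genes it called 711 and 3260. With a block by replicate letter, it called 0 and 3 of the 9, and 532 and 2738 of all genes.

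Between dasatinib 16x and 1x, again 0 of the 9 genes passed with edgeR, where 2.13% of all genes did. Abl1, Blk and Fgr had an unadjusted p under 0.05, as 15.8% of all genes did, and DESeq2 called these 3 and 6.56% of all genes. The libraries did not overlap for 4 genes (Abl1 lower, Lyn, Blk and Fgr higher), against 30.6% of all genes. The median change was 0.07, against 0.002 over all genes.

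**Figure D3:**
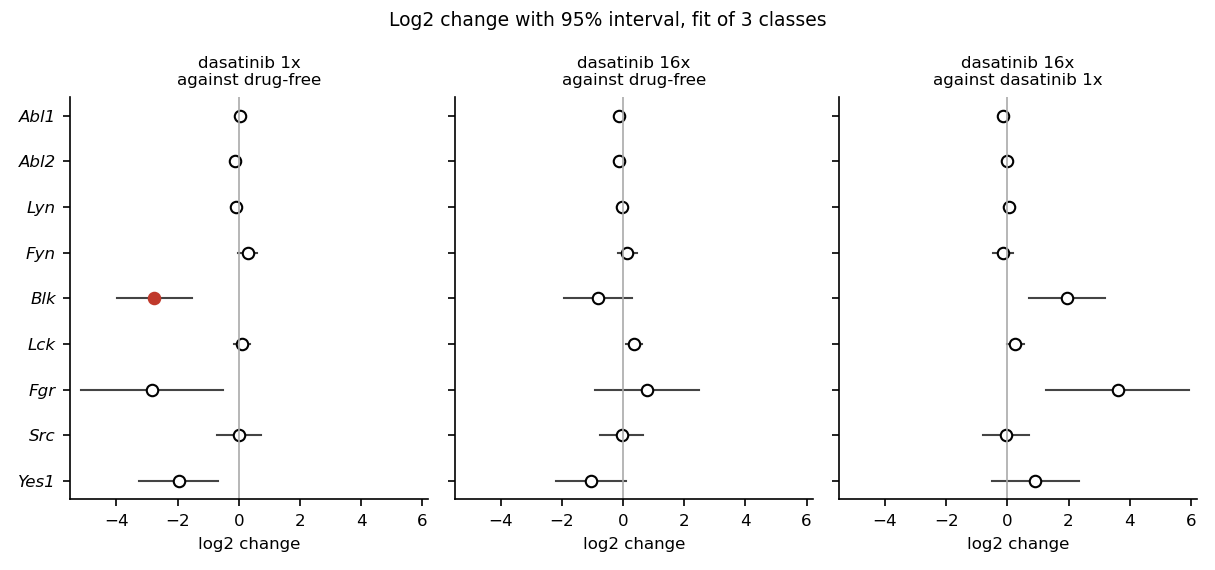
Log2 change with its 95% interval for the 9 genes in the 3 main comparisons (fit of 3 classes); filled points passed the test at an adjusted p under 0.05. Blk at dasatinib 1x (-2.76) is the filled point, and Fgr and Yes1 have the widest intervals at 1x.

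The DMSO lines differed from the parental line without drug. At DMSO 1x, 2 of the 9 genes passed (6.17% of all genes did): Lyn and Fgr were higher. At DMSO 16x, 5 passed (30.9% of all genes): Lyn, Lck and Fgr were higher, Abl1 and Fyn lower. Against DMSO 1x, dasatinib 1x had 2 genes that passed (13.5% of all genes), Lyn and Fgr, both lower. Against DMSO 16x, dasatinib 16x had 3 (35.7% of all genes, a share near that of the 9): Abl2 and Lyn lower, Fyn higher. These comparisons share the parental or DMSO libraries, so their values are set side by side below and not counted as separate support. The single DMSO library of a step is assumed to vary like the replicated groups. Fgr, where counted above, entered the test only through the groups where it is high, so its part in these counts is a description.

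**Figure D4:**
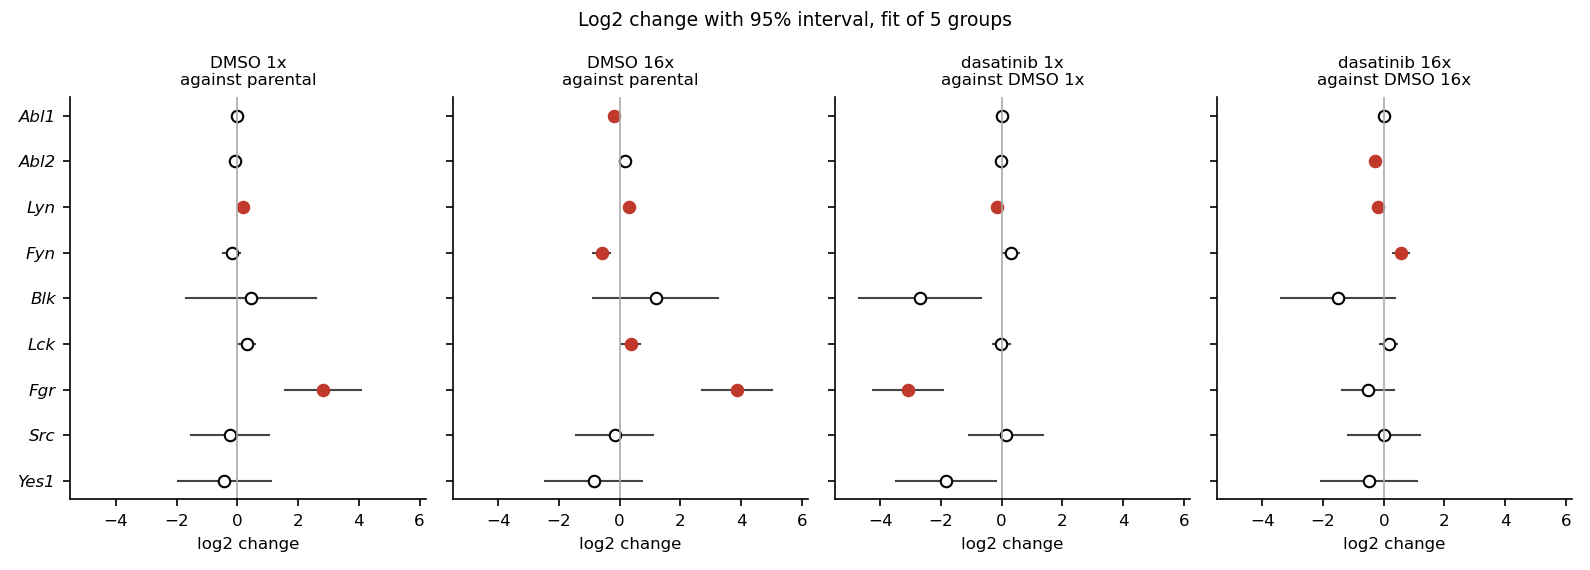
Log2 change with its 95% interval for the 9 genes in the comparisons of each DMSO line with the parental line and of dasatinib with DMSO at the same step (fit of 5 groups); filled points passed at an adjusted p under 0.05. Fgr is higher in both DMSO lines (2.81 and 3.86), and Lyn is a filled point in all 4 comparisons.

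Abl1 encodes the kinase whose catalytic part BCR-ABL1 carries. It stood at 203 and 198 CPM in the parental libraries, 197 in DMSO 1x and 177 in DMSO 16x. It was 198, 201 and 196 CPM in the dasatinib 1x libraries, while the dasatinib 16x libraries stood at 179, 179.5 and 176. All 4 libraries of the 16x steps, with or without drug, were thus below all 6 others. DMSO 16x was lower than the parental line (log2 change -0.18 ± 0.04 SE, adjusted p = 0.00622). Dasatinib 16x differed from DMSO 16x by only 0.01 ± 0.04, with a 95% interval of -0.08 to 0.09.

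Against drug-free libraries, Abl1 changed by 0.03 ± 0.04 at dasatinib 1x (adjusted p = 0.691) and by -0.12 ± 0.04 at 16x (adjusted p = 0.0981). It passed in 1 of 18 alternatives at 1x and in 6 of 18 at 16x. The difference between 16x and 1x was -0.15 ± 0.05 (adjusted p = 0.139). With 5 separate groups instead of 3 classes, the last value was -0.15 (adjusted p = 0.00312) and passed. The change from 1x to 16x differed between the dasatinib and DMSO lines by 0.00 ± 0.06 (95% interval -0.12 to 0.12).

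Abl2, the relative of ABL1 that also binds actin, stood at 158 CPM in both parental libraries, 150.3 in DMSO 1x and 179 in DMSO 16x. It was 150, 147 and 151 CPM in dasatinib 1x and 134, 154 and 152 in dasatinib 16x. DMSO 16x was the highest library and dasatinib 16x A the lowest. At 16x, dasatinib was below DMSO by 0.29 ± 0.06 on the log2 scale (adjusted p = 0.0045), while DMSO 16x against parental did not pass (0.18 ± 0.07, adjusted p = 0.0752). Against all drug-free libraries the changes were -0.11 ± 0.06 at 1x (adjusted p = 0.357) and -0.14 ± 0.06 at 16x (adjusted p = 0.171). The latter passed in 2 of 18 alternatives, and DMSO 16x against parental in 3 of 12. The nearest tested neighbours on chromosome 1 were Tor1aip2, Soat1, Tor3a and Fam20b. They were 0.33, 0.23, 0.19 and 0.09 in DMSO 16x against parental. In dasatinib 16x against DMSO 16x they were -0.32, 0.13, -0.46 and -0.08. The part of this region in the Abl2 values was not tested.

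Lyn can both start and, through inhibitory receptors, dampen signalling in B cells. It stood at 139 and 143 CPM in the parental libraries, 161 in DMSO 1x and 174 in DMSO 16x. It was 147, 144 and 144 CPM in dasatinib 1x and 155, 151 and 149.7 in dasatinib 16x. Both DMSO lines were above the other 8 libraries. The DMSO 1x line exceeded the parental line by 0.19 ± 0.04 on the log2 scale (adjusted p = 0.0223) and the DMSO 16x line by 0.31 ± 0.04 (adjusted p = 0.000184). Dasatinib lines were lower than their DMSO counterparts, by -0.15 ± 0.04 at 1x (adjusted p = 0.0261) and -0.20 ± 0.04 at 16x (adjusted p = 0.00218).

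Against all drug-free libraries, Lyn changed by -0.09 ± 0.07 at 1x (adjusted p = 0.496) and -0.02 ± 0.07 at 16x (adjusted p = 0.863). It passed as lower in 2 of 18 alternatives at 1x and in 1 of 18 at 16x. Against the parental libraries alone, the direction at 16x turned, to 0.11 (adjusted p = 0.0296). The DMSO 1x call was lost without parental A (adjusted p = 0.145) or B (0.0949). The call of dasatinib 1x against DMSO 1x was lost without parental A (0.0517) or dasatinib 1x C (0.0669), and with DESeq2 (0.0541). Without strand, its reads cannot be told from those of Gm26857, whose exons lie opposite to 6.09% of its exon bases.

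Fyn, which is widely expressed in lymphocytes, moved the other way in the DMSO lines. It stood at 132 and 130.3 CPM in the parental libraries, 115 in DMSO 1x and 86.9 in DMSO 16x. It was 144, 136 and 145 CPM in dasatinib 1x and 142, 113 and 129 in dasatinib 16x. All dasatinib 1x libraries were above all drug-free ones, and DMSO 16x was the lowest of the 10. DMSO 16x was below the parental line by -0.59 ± 0.12 on the log2 scale (adjusted p = 0.00782), and dasatinib 16x was above DMSO 16x by 0.56 ± 0.12 (adjusted p = 0.00708). Against all drug-free libraries, Fyn changed by 0.29 ± 0.14 at 1x (95% interval -0.02 to 0.59, adjusted p = 0.27) and by 0.14 ± 0.14 at 16x (adjusted p = 0.524). At each of these steps it passed in 2 of 18 alternatives. Dasatinib 1x was above DMSO 1x by 0.30 ± 0.11, which did not pass, but did in 3 of 12 alternatives.

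Blk, a SRC family kinase that is largely restricted to B cells, had the largest change of the more abundant members. It stood at 25.7 and 24.4 CPM in the parental libraries, 34.0 in DMSO 1x and 57.1 in DMSO 16x. It was 4.65, 5.56 and 5.40 CPM in the dasatinib 1x libraries A to C. The dasatinib 16x libraries A to C stood at 7.23, 36.9 and 16.4 CPM. The dasatinib 1x libraries were below all 7 others. The 16x libraries lay far apart and overlapped the drug-free ones.

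At dasatinib 1x, Blk fell to 5.20 ± 0.484 CPM (SD, n = 3) from 35.3 ± 15.1 (n = 4), a log2 change of -2.76 ± 0.54 (95% interval -3.99 to -1.53, adjusted p = 0.0418). The call was lost in 11 of 18 alternatives. It was lost with no filter on low counts (adjusted p = 0.0991) and in the fit of parental and dasatinib libraries with the replicate block (0.269) or without it (0.154). It was also lost without parental A (adjusted p = 0.0549), DMSO 1x (0.0989), DMSO 16x (0.0792), dasatinib 16x C (0.0646) or any of the dasatinib 1x libraries (0.172 to 0.188). Against the parental libraries alone the change was -2.26 (adjusted p = 0.159), and against DMSO 1x alone -2.70 ± 0.79 (adjusted p = 0.0984). In bulk RNA, fewer cells with the transcript and less transcript per cell cannot be told apart. The summed pro-B and pre-B markers were 4021 to 4406 CPM in drug-free, 3895 to 4078 in dasatinib 1x and 3801 to 3980 CPM in dasatinib 16x libraries. Single markers moved more than the sum. Rag1, a recombinase of B cell precursors, had 18.5 CPM at dasatinib 1x against 56.8 in drug-free libraries, which did not pass (-1.62, adjusted p = 0.124). At 16x, 6 of the 12 fell, among them Rag1 to 5.12 CPM (-3.46, adjusted p = 0.00358), Rag2 to 2.57 CPM (-2.76, adjusted p = 0.0227) and Pax5 (-0.39, adjusted p = 0.005), and Dntt had 75.0 CPM against 19.1 (1.98, adjusted p = 0.0781). The part of these markers in the Blk result was not tested.

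At dasatinib 16x, Blk stood at 20.2 ± 15.2 CPM (n = 3). It differed from drug-free libraries by -0.81 ± 0.49 (adjusted p = 0.297) and from dasatinib 1x by 1.95 ± 0.55 (adjusted p = 0.117). The latter reached an adjusted p of 0.0496 without dasatinib 16x A and 0.018 with DESeq2. In the DMSO lines, the changes against the parental line were 0.44 ± 0.84 at 1x (adjusted p = 0.818) and 1.19 ± 0.81 at 16x (adjusted p = 0.342), with intervals that span 0.

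Lck, best known from T cells, where it phosphorylates the T cell receptor, was low but measured in every library. It stood at 17.2 and 18.0 CPM in the parental libraries, 21.7 in DMSO 1x and 22.9 in DMSO 16x. It was 19.2, 24.1 and 21.1 CPM in dasatinib 1x and 26.6, 23.1 and 27.4 in dasatinib 16x. The parental libraries were the lowest, and all dasatinib 16x libraries were above all drug-free ones. Lck was higher in DMSO 16x than in the parental line by 0.38 ± 0.13 (adjusted p = 0.048), a call lost without parental A (0.171), parental B (0.107) or dasatinib 1x C (0.0676), and with DESeq2 (0.0653).

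At dasatinib 16x, Lck differed from drug-free libraries by 0.36 ± 0.12 (adjusted p = 0.0638). It passed in 6 of 18 alternatives, among them the fit without DMSO 16x (0.0157). The difference from DMSO 16x was 0.16 ± 0.12 (95% interval -0.11 to 0.44, adjusted p = 0.344). At 1x the change against drug-free was 0.10 ± 0.12 (adjusted p = 0.649). The T cell list summed to 53.9 to 83.1 CPM in drug-free, 53.9 to 60.6 in dasatinib 1x and 71.7 to 75.8 CPM in dasatinib 16x libraries. Of its 12 genes, 4 could be tested: Cd247, Cd5, Cd28 and Tcf7. Cd247, the most abundant, had group means of 36.0 to 44.7 CPM and did not pass at dasatinib 16x against drug-free (-0.10). Against DMSO 16x, dasatinib 16x had Tcf7 higher and Cd247, Cd28 and Cd5 lower. At dasatinib 16x against drug-free, Tcf7, a transcription factor of T cells and their precursors, rose from 8.35 to 14.8 CPM (0.82, adjusted p = 0.00541), and Cd5 fell. Cd28, a co-stimulatory receptor, stood at 5.51 CPM in parental, 13.7 in DMSO 1x, 28.3 in DMSO 16x, 8.94 in dasatinib 1x and 21.6 CPM in dasatinib 16x, and was higher in DMSO 16x than in parental (2.36, adjusted p = 5.89e-08). Cd4, Cd8b1 and Themis were at 0 counts in every library. The part of this list in the Lck values was not tested.

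Fgr, a SRC family kinase of myeloid cells and some B cells, was nearly silent in some groups and low in others. It had 3 and 4 counts in the parental libraries and 4, 4 and 1 counts in those of dasatinib 1x. It had 26 counts in DMSO 1x, 55 in DMSO 16x, and 47, 43 and 42 in dasatinib 16x. The parental and dasatinib 1x libraries were thus below all others without overlap. In CPM the group means were 0.0989 (parental), 0.0841 ± 0.0526 (dasatinib 1x), 0.711 (DMSO 1x), 1.47 (DMSO 16x) and 1.03 ± 0.0258 (dasatinib 16x). The single-library values have 95% Poisson intervals of 0.465 to 1.04 CPM for DMSO 1x and 1.11 to 1.92 CPM for DMSO 16x, which cover counting error only.

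Fgr reached 0.25 CPM, the level of the filter on low counts, in only the 5 libraries of the groups where it is high, so it entered the test through them, and its calls are given as a description. With no filter, the 4 calls below had adjusted p of 1.59e-06 to 0.0309. Fgr was higher than in the parental line by 2.81 ± 0.57 on the log2 scale in DMSO 1x (adjusted p = 0.0147) and by 3.86 ± 0.53 in DMSO 16x (adjusted p = 0.000146). The DMSO 1x call was lost without parental A (0.0929) or B (0.138). Dasatinib 1x was below DMSO 1x by -3.08 ± 0.53 (adjusted p = 0.0024), whereas dasatinib 16x differed from DMSO 16x by -0.52 ± 0.39 (95% interval -1.36 to 0.33, adjusted p = 0.34). The fitted rise from the first to the last step was larger under dasatinib than under DMSO by 2.56 ± 0.67 (adjusted p = 0.0422), where each DMSO step is 1 library. Of all tested genes, 6.74% passed this test, and Fgr was the one of the 9 that did.

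The Fgr step difference was lost without either parental library, dasatinib 1x B, dasatinib 1x C or dasatinib 16x C (adjusted p = 0.0567 to 0.0813), and with DESeq2 (0.22). Within the dasatinib lines the change from 1x to 16x was 3.60 ± 1.04 (adjusted p = 0.12) in the fit of 3 classes, where the drug-free class holds both low and high libraries, and 3.61 (adjusted p = 0.000157) with 5 separate groups. Against the mixed drug-free class, Fgr changed by -2.83 ± 1.03 at 1x (adjusted p = 0.188) and by 0.77 ± 0.75 at 16x (adjusted p = 0.53). The myeloid list summed to 6.89 to 7.91 CPM in parental, 8.04 in DMSO 1x, 8.36 in DMSO 16x, 9.05 to 9.66 in dasatinib 1x and 10.3 to 18.7 CPM in dasatinib 16x libraries. Of its 12 genes, 3 could be tested: Lyz2, Itgam and Fcgr3. Lyz2 and Itgam did not pass in DMSO 16x against parental (log2 change -0.74 and -0.17). Nor did they in dasatinib 16x against drug-free libraries (0.197 and -1.14). Fcgr3 is an Fc receptor of myeloid and some B cells. It stood at 1.52 CPM in parental, 3.17 in DMSO 1x and 4.45 in DMSO 16x. It was 2.84 CPM in dasatinib 1x and 7.54 in dasatinib 16x. As for Fgr, its parental and dasatinib 1x means were below the others. Unlike Fgr, Fcgr3 was higher in dasatinib 1x than in parental, and highest in dasatinib 16x. It was higher in DMSO 16x than in parental (1.58, adjusted p = 0.0128) and in dasatinib 16x than in drug-free libraries (2.83-fold, adjusted p = 0.0343), and Elane and S100a8 were at 0 counts in every library. The part of this list in the Fgr values was not tested.

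Src, the founding member of the family, was near the limit of detection throughout, with 10 to 22 counts per library. Group means were 0.415 CPM in parental, 0.395 ± 0.152 in dasatinib 1x and 0.38 ± 0.0954 CPM in dasatinib 16x libraries, with 0.356 and 0.375 in the DMSO lines. All groups overlapped. The log2 change was 0.02 at dasatinib 1x (95% interval -0.70 to 0.73) and -0.04 at 16x (-0.75 to 0.67) against drug-free, and neither passed.

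Yes1, a widely expressed relative of Src, had 18 and 27 counts in the parental libraries, 17 in DMSO 1x and 13 in DMSO 16x. It had 9, 3 and 2 counts in dasatinib 1x and 12, 5 and 15 in dasatinib 16x. All dasatinib 1x libraries were below all drug-free ones in CPM, at 0.137 ± 0.129 (n = 3) against 0.518 ± 0.138 (n = 4). The log2 change of -1.97 ± 0.57 did not pass (adjusted p = 0.12). It passed with 5 separate groups (-1.84, adjusted p = 0.0287) and against the parental libraries alone (-2.27, adjusted p = 0.0492). At 16x the change was -1.05 ± 0.51 (adjusted p = 0.195).

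Yes1 lies on chromosome 5, whose 733 tested genes had median log2 changes of -0.465 in DMSO 16x against parental and 0.215 in dasatinib 1x against drug-free. The median was -0.165 in DMSO 1x against parental and 0.243 in dasatinib 1x against DMSO 1x. The drug-free class holds both DMSO lines, so the 0.215 does not show a rise from the parental line. Over the other chromosomes that hold the 9 genes, the largest median in these comparisons was 0.086 (chromosome 1, DMSO 16x). Of the 4 nearest tested neighbours of Yes1, 3 were lower in DMSO 16x than in parental: Ppp1cb by -0.45 (adjusted p = 2.14e-05), Pisd by -0.53 (adjusted p = 8.51e-05) and C330019G07Rik by -0.45 (adjusted p = 8.81e-05). Plb1, the fourth, did not pass (-0.29, adjusted p = 0.693). At dasatinib 1x none of these 4 passed with edgeR (adjusted p = 0.249 to 0.707), and Plb1 was -0.21, opposite in sign to the median of the chromosome. Yes1 itself was -0.85 ± 0.73 in DMSO 16x against parental, which did not pass. At dasatinib 1x against drug-free, its value was opposite in sign to the median of its chromosome with that reference.

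The genes next to Blk did not pass the test at dasatinib 1x. Beside Blk on chromosome 14, Fdft1 was -0.16 and Mtmr9 -0.13 against drug-free (adjusted p = 0.247 and 0.238). Beside Fgr on chromosome 4, the largest change in DMSO 16x against parental was 0.29 (Ahdc1, adjusted p = 0.00366), against 3.86 for Fgr. For Fyn on chromosome 10, the neighbours Tube1, Wisp3, Traf3ip2 and Rev3l were -0.02, -0.20, 0.03 and -0.09 in DMSO 16x against parental. None of them passed, and Wisp3 had a mean of only 0.69 CPM.

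By a fixed measure of likeness (Pearson r of log2 CPM over the 10 libraries, 8489 genes of at least 5 CPM searched), the genes most like Blk were Ltbp4 (0.943), Dgcr6 (0.941) and Trim25 (0.935). Trim25, a ubiquitin ligase of antiviral signalling, had group means of 71.8 CPM in parental, 91.9 in DMSO 1x, 126 in DMSO 16x, 30.2 in dasatinib 1x and 44.5 in dasatinib 16x. Most like Fyn were Chmp1b (0.988), Zfp704 (0.985) and Vps37c (0.983). Zfp704, a zinc finger gene, had 24.1 CPM in parental, 12.4 in DMSO 1x, 2.39 in DMSO 16x, 31.8 in dasatinib 1x and 22.2 in dasatinib 16x. The libraries of a group share their history, so these values describe the pattern and carry no test.

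Other genes around the kinases were counted by list. Of all 12282 tested genes, 1.96% passed at dasatinib 1x (101 higher, 140 lower) and 16.1% at 16x (957 higher, 1023 lower). Of 17 regulators of SRC family kinases, 1 rose and 0 fell at dasatinib 1x, and 4 rose and 0 fell at 16x, with list medians of -0.045 and 0.067. Pag1, the membrane adaptor that brings the inhibitory kinase CSK to SRC kinases, rose at both steps. It was 93.0 to 105 CPM in drug-free, 119 to 128 in dasatinib 1x and 123 to 147 CPM in dasatinib 16x libraries, without overlap with drug-free (log2 change 0.32 ± 0.06, adjusted p = 0.0421, and 0.45 ± 0.06, adjusted p = 0.00235). The others at 16x were Dok3, an adaptor that restrains B cell receptor signalling (0.31 ± 0.08, adjusted p = 0.0348), Cblb, a ubiquitin ligase (0.16 ± 0.04, adjusted p = 0.0289), and Ptpn22, a phosphatase of SRC kinases. Ptpn22 was 23.4, 4.04 and 12.4 CPM in dasatinib 16x A, B and C against 2.04 to 5.29 in drug-free libraries, which overlap (1.88 ± 0.50, adjusted p = 0.0337). These calls, other than Pag1 at 16x, were lost under some alternatives. At 1x, Pag1 was no longer called without parental A, DMSO 1x, any dasatinib 1x library or dasatinib 16x B (adjusted p = 0.0607 to 0.194). At 16x, Dok3 was lost without DMSO 1x, any dasatinib 1x library or dasatinib 16x A or B (0.0502 to 0.103), and Cblb without either parental library, DMSO 1x, dasatinib 1x A or C, or dasatinib 16x B or C (0.0513 to 0.115). Ptpn22 was lost in 14 of 18 alternatives: without any one library other than parental B and dasatinib 16x B (0.0536 to 0.136), with no filter (0.0693), with 5 groups (0.0505), against parental alone (0.195) or DMSO alone (0.0676), and among parental and dasatinib libraries with the replicate block (0.407) or without it (0.198). Against parental alone, Pag1 at 1x (0.0642) and Dok3 (0.0863) were lost too, as was Cblb against DMSO alone (0.07).

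Of 19 partners in pre-B and B cell receptor signalling, 1 rose and 0 fell at 1x, and 3 rose and 4 fell at 16x. The list medians were 0.041 and -0.052, and 1.96% and 16.1% of all tested genes passed at these steps. Zap70, the relative of SYK that docks on phosphorylated receptor chains, rose at both steps. It was 8.74 to 13.5 CPM in drug-free, 18.6 to 21.9 in dasatinib 1x and 15.2 to 16.6 CPM in dasatinib 16x libraries, with no overlap with drug-free (0.84 ± 0.14, adjusted p = 0.0231, and 0.47 ± 0.14, adjusted p = 0.0477). Bank1, a B cell scaffold that binds Lyn, was 50.9 to 58.3 CPM at 16x against 19.6 to 20.4 at 1x (1.43 ± 0.22, adjusted p = 0.0177) and 24.0 to 47.8 in drug-free libraries (0.71 ± 0.20, adjusted p = 0.0435). The call of Zap70 was lost at 1x without DMSO 1x or any dasatinib 1x library (0.0619 to 0.124), and at 16x without DMSO 1x or any dasatinib library (0.0652 to 0.138). At 16x that of Zap70 was also lost against parental alone (0.0521). That of Bank1 was lost against drug-free with no filter (0.083) and without any one library other than DMSO 16x (0.0690 to 0.136), and against 1x without any dasatinib 1x library or dasatinib 16x A or C (0.0503 to 0.1001).

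Cd79b, a signalling chain of the receptor and a substrate of these kinases, fell at 16x to 262 to 281 CPM from 305 to 389 in drug-free libraries (-0.34 ± 0.08, adjusted p = 0.0192). Syk, named after its values were seen, had group means of 0.219 to 0.341 CPM. The call of Cd79b was lost without DMSO 1x or any dasatinib 16x library (0.0505 to 0.0745).

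Of 19 partners of ABL1 and BCR-ABL1, 17 could be tested. At 1x, 1 rose and 0 fell, and at 16x 2 rose and 3 fell, with list medians of 0.038 and -0.024. Over all tested genes, 1.96% and 16.1% passed at these steps. Pxn, paxillin, a focal adhesion protein that ABL phosphorylates, was 79.1 to 83.2 CPM in drug-free, 97.3 to 101 in dasatinib 1x and 94.4 to 101 CPM in dasatinib 16x libraries, without overlap (0.28 ± 0.04, adjusted p = 0.00906, and 0.26 ± 0.04, adjusted p = 0.00196). Gab1, a docking adaptor, was 4.02 to 7.24 CPM in drug-free libraries, 2.07 to 2.97 at 1x, and 0.813, 0.098 and 0 CPM in dasatinib 16x A, B and C (-4.10 ± 0.83 at 16x, adjusted p = 0.0118). Crkl, the adaptor most used to read BCR-ABL1 activity, fell at 16x to 95.8 to 101 CPM from 105 to 109 (-0.13 ± 0.03, adjusted p = 0.0294), and Wasf2, an actin regulator, to 149 to 154 from 167 to 175 (-0.16 ± 0.03, adjusted p = 0.00955). The call of Pxn at 1x was lost without dasatinib 1x A (0.0659) or B (0.0557). That of Crkl was lost without parental A, DMSO 1x, dasatinib 1x A, or dasatinib 16x A or C (0.0536 to 0.123), with no filter (0.0601) and with the replicate block (0.0559). The call of Gab1 at 16x was lost with the replicate block (0.0952) and held without any one library (up to 0.039), with log2 changes of -6.70 to -3.53 over its alternatives.

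Between dasatinib 16x and 1x, 1 regulator (Cblb, 0.20 ± 0.04, adjusted p = 0.0489) and 1 partner (Bank1) rose, and 0 genes of the other lists passed with edgeR. Over all tested genes, 2.13% passed. The call of Cblb was lost without any one library other than DMSO 16x, with RLE scaling (0.0524) and with no filter (0.0805). In this comparison, 5 of 17 regulators and 6 of 19 receptor signalling partners had an unadjusted p under 0.05. So did 3 of 17 tested partners of ABL1 and 2 of 10 tested other kinases that dasatinib binds. The share of all genes was the 15.8% given above.

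Promoter sequences from RefSeq (GRCm38.p6, while the counts were made on mm9) were found for 7 of the 9 genes, and not for Blk and Lyn. Shown are the 250 bases before the start of Fgr and Fyn, which moved in opposite directions in DMSO 16x. Capitals mark a match to one of the 5 motifs searched on both strands.
Fgr, chr4:132973845-132974094, plus strand: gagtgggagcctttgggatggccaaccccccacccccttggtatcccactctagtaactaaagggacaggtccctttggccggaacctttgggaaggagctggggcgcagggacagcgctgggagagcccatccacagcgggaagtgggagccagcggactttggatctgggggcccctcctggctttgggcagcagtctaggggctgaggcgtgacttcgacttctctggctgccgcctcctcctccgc
Fyn, chr10:39369549-39369798, plus strand: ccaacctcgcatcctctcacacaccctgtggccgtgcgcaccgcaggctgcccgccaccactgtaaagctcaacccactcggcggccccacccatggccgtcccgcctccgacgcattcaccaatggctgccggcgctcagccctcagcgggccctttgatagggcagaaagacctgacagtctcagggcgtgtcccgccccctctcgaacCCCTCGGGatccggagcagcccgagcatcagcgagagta
The motifs were GAGGAAG (ETS or PU.1), TTCNNNGAA (STAT), CCCNNGGG (EBF), ATTTGCAT (octamer) and TGTTTAC (FOXO), which occur in 13.6, 8.3, 13.7, 1.74 and 3.65% of 32851 promoters of 300 bases. Fyn held the EBF letters 39 bases before its start. Fgr held none of them in the stretch shown and the reverse of GAGGAAG 30 bases after its start. The EBF letters also occur in the Src and Yes1 promoters, GAGGAAG in those of Src and Lck, and the octamer in one of Abl1. Ebf1 RNA itself had group means of at most 0.478 CPM. In the whole windows, CG pairs numbered 47 in Src, 42 in Yes1, 31 in Fyn and Abl2, 11 in Fgr and 5 or 7 in Lck, against a median of 7 over all promoters.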

How the data were processed

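RNA of 10 libraries was sequenced, and the authors deposited a table of counts per gene, with symbols as row names. Per the submitters' processing notes, CASAVA 1.7.0, Trimmomatic 0.33, TopHat2 2.0.12, BWA 0.7.10, SAMtools, HTSeq 0.6.1 and DESeq were used, and mm9 is named as the build. The strand setting of the counting is not given in the sources used here. The dasatinib libraries are labelled as biological replicates, but no label names separate cultures. The p-values therefore cover no more than the spread among the libraries, which may be technical.

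The 9 genes, the lists around them and the rules were chosen with earlier results of these data known. Of 29955 rows, 18621 had a count and 12282 passed filterByExpr (minimum count 10), which left 99.96% or more of the counts of each library. Fgr reached 0.25 CPM, the level of that filter, in 5 libraries and Yes1 in 7. CPM were computed on TMM-scaled totals, and log2 CPM with a prior count of 2. Genes were tested in R 4.3.3 with edgeR 4.0.16 (quasi-likelihood, robust) with Benjamini-Hochberg adjustment over all tested genes at 0.05. A fit of 3 classes served the 3 main comparisons (biological coefficient of variation 15.3%, 7 residual degrees of freedom). The comparisons with single DMSO libraries, and the test whether the step from 1x to 16x differed between dasatinib and DMSO, used a fit of 5 groups (7.27%, 5 degrees of freedom). Standard errors were derived from the log2 change and its F value. The procedure was tested on simulated data. Of the lists, genes called in a main comparison were named, at most 4 of each with the smallest p. Some of these genes, and a sequence, are not reported here. Likeness was computed for the tested genes with a mean of 5 CPM or more. Exon lengths and coding sequences came from GENCODE vM21, promoters and gene order from RefSeq on GRCm38.p6, and neighbours by name only. Alternatives were RLE scaling, no filter, DESeq2 1.42.0, 5 groups, other references, a block by replicate letter, and leaving out each library. Same-letter libraries did not deviate together (correlations of -0.009 to 0.065).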

Additional observations from a re-analysis of the deposited data

Results flagged for a closer look

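In the edgeR fit, the change of Fgr from the first to the last step differed between the dasatinib and the DMSO lines by 2.56 ± 0.67 on the log2 scale. Each DMSO step is 1 library. Fgr passed the filter on low counts only through the groups where it is high, so this difference is a description. Fgr went from 0.0841 ± 0.0526 to 1.03 ± 0.0258 CPM under dasatinib (n = 3 and 3) and from 0.711 to 1.47 CPM under DMSO (1 library each). The call of this difference was lost in 6 of its 11 alternatives. No library of a kinase stood far from the other libraries of its class in the group large enough for that check, the 4 drug-free libraries.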

How the results depend on the processing

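Of 994 changes of the 9 kinases recomputed under alternatives, 906 kept their call, 28 lost it, 58 gained one and 2 were called with the opposite sign. A further 36 changed sign without a call in either setting, and 5 got no adjusted p from DESeq2. None of 45 group levels moved beyond its spread under RLE scaling. Both reversals were Lyn at dasatinib 16x, at 0.11 with the parental libraries alone as reference and 0.11 without the block among parental and dasatinib libraries, and the cause was not tested.

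The number of genes called moved with the tool, the grouping, the reference and the libraries used. For dasatinib 1x against drug-free it was 241, with 853 by DESeq2, 3449 with 5 groups, 708 against parental alone and 4149 against DMSO alone. For dasatinib 16x against drug-free it was 1980, with 4542, 3252 and 4518 in the last 3 settings. For 16x against 1x it was 262, with 805 by DESeq2 and 1669 with 5 groups. Leaving out 1 library gave 17 to 516, 1005 to 2765 and 41 to 978 in these comparisons, 110 to 1410 for DMSO 1x against parental and 538 to 1248 for the step difference. The cause was not tested. Fits without a library also have fewer samples.

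The replicate letters do not pair the samples by the check used, although each dasatinib 1x library correlated best with the 16x library of its own letter. With the replicate block, 532 genes were called at dasatinib 1x against parental (711 in the same libraries without the block), 2738 at 16x (3260 without the block) and 1143 between 16x and 1x (1235 without the block). Depth limits Fgr, Src and Yes1, with 1 to 55 counts per library. The number of samples limits the rest: each DMSO step has 1 library, and the parental line has 2.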
